A study of Mus musculus with 12 samples.

Results

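The cellular oxygen-sensing machinery was followed at the RNA level through 10 genes: the HIF alpha subunits Hif1a and Epas1, their partners Arnt and Arnt2, the prolyl hydroxylases Egln1, Egln2 and Egln3, the asparaginyl hydroxylase Hif1an, the ubiquitin ligase subunit Vhl, and Ankrd37, a HIF target. They were taken by symbol from a table of 24770 genes, and all 10 had a row. RNA abundance came from 12 libraries of GC-2, an immortalised mouse line of male germ cell origin labelled as type B spermatogonia with a WT genotype, as FPKM (fragments scaled by transcript length and library size). DMSO normoxia was the solvent control in ordinary culture air, DMSO hypoxia received the solvent under 1% O2, MLN4924 normoxia received 1 µM MLN4924 in ordinary air, and MLN4924 hypoxia received 1 µM MLN4924 under 1% O2. Every sample title gives GC-2, but the cell type label carries a different number after GC in each sample, so the line was taken from the titles and its identity was not tested. All groups were sampled at 24 h with 3 libraries each, described by the submitters as biological replicates. Whether those came from independent cultures on different days is not given, so the p-values measure the spread between these libraries, all from 1 cell line.

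In oxygenated cells, prolyl hydroxylases of the EGLN family hydroxylate HIF alpha subunits, and the VHL protein then recruits the hydroxylated subunit to a cullin 2 ubiquitin ligase for proteasomal destruction. When oxygen is scarce the alpha subunit escapes, pairs with ARNT and activates genes that carry hypoxia response elements, among them some of its own hydroxylases, which forms a negative feedback loop. The cullin ligase works only when the ubiquitin-like protein NEDD8 is attached to its cullin, and MLN4924 blocks the enzyme that activates NEDD8. Control of HIF alpha in this pathway is largely exerted on the protein, which was not measured here.

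The label of the line was compared with marker genes. Of 12 spermatogonial markers, 8 had rows, and only Gfra1 (1.14 to 6.23 FPKM) and Uchl1 (10.8 to 22.4 FPKM) averaged at least 1 FPKM. Kit, Sohlh1, Sohlh2 and Ddx4 did not exceed 0.20 FPKM in any library, whereas the fibroblast collagens Col1a1 and Col1a2 ranged from 365 to 739 and from 338 to 636 FPKM. The summed Sertoli cell markers ran from 15.2 to 18.1 FPKM in DMSO normoxia, 21.9 to 25.0 in DMSO hypoxia, 8.56 to 13.0 in MLN4924 normoxia and 11.1 to 15.4 in MLN4924 hypoxia, and those of Leydig cells, of which only Star averaged at least 1 FPKM, ran from 11.3 to 12.1, 2.84 to 6.08, 1.61 to 3.83 and 3.29 to 6.63 in the same order of groups. Of 8 fibroblast markers 6 averaged at least 1 FPKM with sums of 1086 to 1427. Of these, Col3a1 ran from 6.41 to 13.5 FPKM and Acta2 from 24.4 to 423 FPKM. Thy1 did not exceed 0.11 FPKM and Myh11 did not exceed 0.02 FPKM. The part of these markers in the results below was not tested, and in bulk RNA fewer cells of a type and less RNA per cell cannot be told apart. DMSO hypoxia replicate 1 stood apart, with values that summed to 633597 FPKM, whereas the other 11 libraries summed to 530452 to 557779. Its deviation from the mean of the other libraries of its group ran against transcript length (Spearman rho -0.28 across genes, not independent replicates). This rho was 0.21 for DMSO hypoxia replicate 2 and 0.23 for replicate 3, each compared with a mean that includes replicate 1. In the other 3 groups it was at most 0.03 in size.

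Hypoxia raised the RNA of the prolyl hydroxylases Egln1 and Egln3, of Vhl and of the target Ankrd37 and lowered that of Hif1a, and MLN4924 lowered Arnt, all 3 prolyl hydroxylases and Ankrd37 in either oxygen condition. Of the 10 genes, 8 passed the filter of at least 1 FPKM in at least 3 libraries and were tested, while Epas1 and Arnt2 did not. In DMSO, hypoxia raised 4 of the 8 (Ankrd37, Egln1, Egln3 and Vhl) and lowered 3 (Hif1a, Hif1an and Egln2), by limma with Benjamini-Hochberg adjusted p under 0.05 over all tested genes. Among all 12311 genes tested in that comparison, 33.2% passed, 13.8% upward and 19.4% downward. With median-of-ratios scaling the upward and downward calls over all genes were 2078 and 1915 rather than 1700 and 2393, and Egln2 was then no longer called. In MLN4924, hypoxia raised the same 4 genes and lowered Hif1a and Egln2, against 28.2% of all genes passing, 11.7% upward and 16.5% downward.

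MLN4924 lowered 6 of the 8 genes in normoxia and raised 0, also at an unadjusted limma p under 0.05, against 20.0% of all genes passing, 9.33% upward and 10.7% downward. The 6 were Hif1a, Arnt, Egln1, Egln2, Egln3 and Ankrd37. In hypoxia MLN4924 lowered Arnt, Egln1, Egln2, Egln3, Vhl and Ankrd37 and again raised 0, with the same count at an unadjusted p, against 25.5% of all genes passing, 12.2% upward and 13.3% downward. The fit without DMSO hypoxia replicate 1 called the same genes in both MLN4924 comparisons and in the DMSO hypoxia comparison, and it added Hif1an among the genes lowered by hypoxia in MLN4924.

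**Figure D1:**
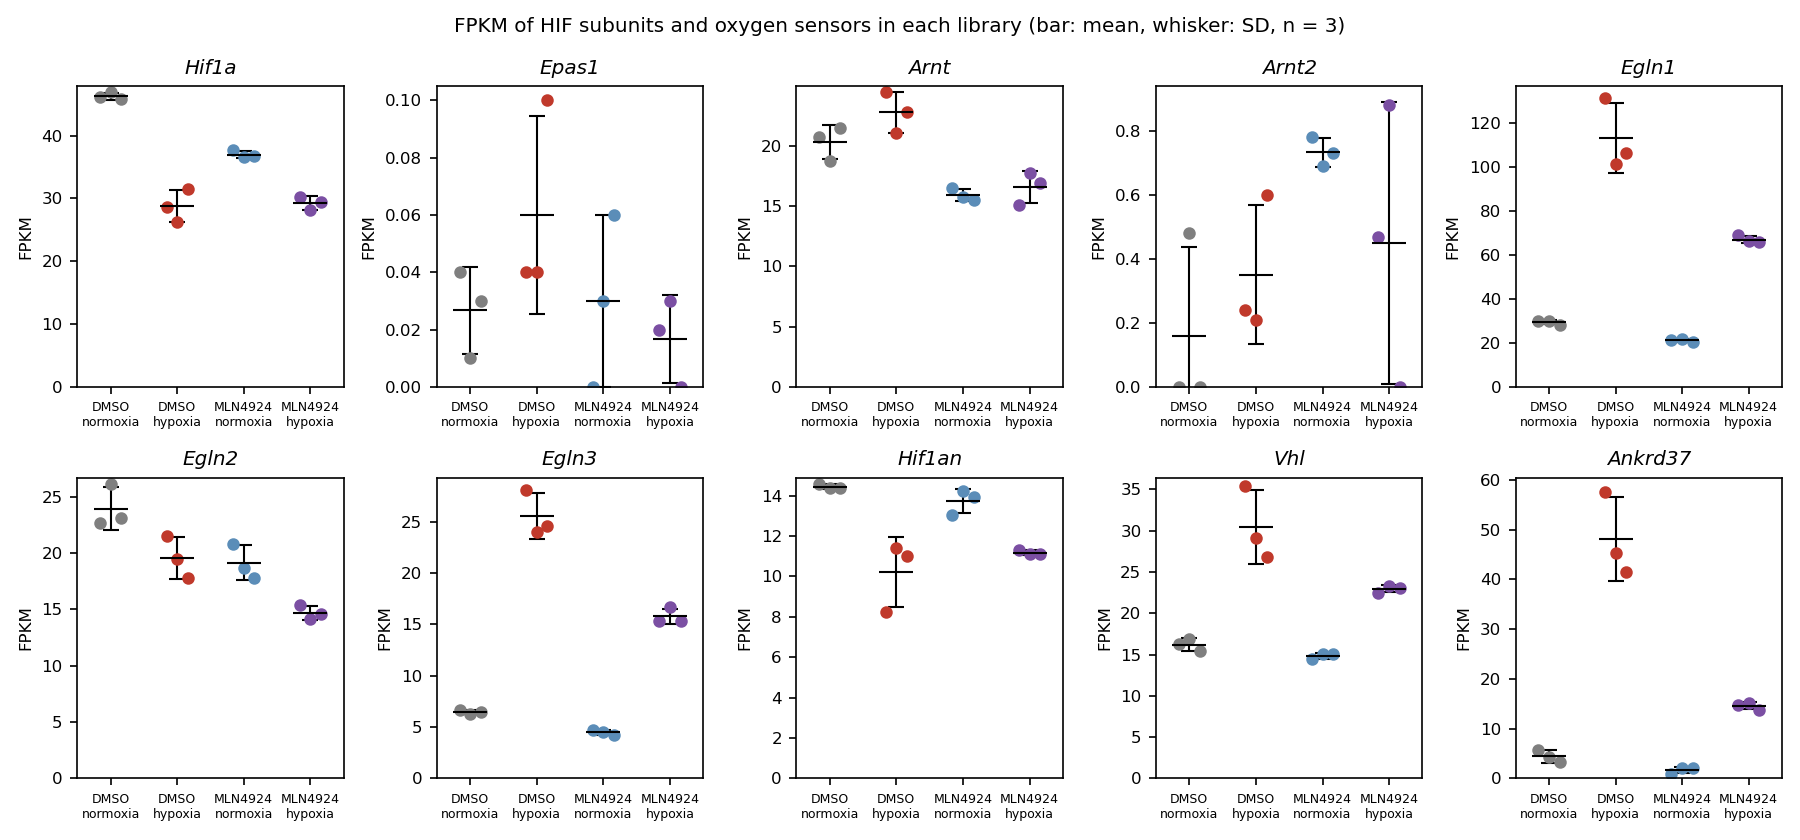
FPKM (vertical axis, linear, from 0) of the 10 genes in the 4 groups, 1 panel per gene with its own scale. Points are single libraries, horizontal bars are group means and whiskers are SD over 3 libraries; Egln1, Egln3, Vhl and Ankrd37 are higher in every hypoxia library than in any normoxia library, while Epas1 stays at or below 0.10 FPKM.

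The 4 genes that rose under hypoxia are shown with the 250 bases before their annotated start, because HIF recognises the short core ACGTG or GCGTG. The windows are from RefSeq on GRCm38.p6, written 5′ to 3′ in the gene's direction, with matches to ACGTG or GCGTG on either strand in capitals. RefSeq held windows for 9 of the 10 genes. The windows lie at chr8:45999851-46000100 (minus strand) for Ankrd37, chr8:124949255-124949504 (minus strand) for Egln1, chr12:54203875-54204124 (minus strand) for Egln3 and chr6:113623744-113623993 (plus strand) for Vhl.
Ankrd37: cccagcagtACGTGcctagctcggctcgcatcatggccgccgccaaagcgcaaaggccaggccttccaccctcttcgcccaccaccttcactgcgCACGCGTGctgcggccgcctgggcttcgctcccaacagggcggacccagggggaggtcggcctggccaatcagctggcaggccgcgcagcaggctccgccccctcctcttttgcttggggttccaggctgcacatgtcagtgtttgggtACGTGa
Egln1: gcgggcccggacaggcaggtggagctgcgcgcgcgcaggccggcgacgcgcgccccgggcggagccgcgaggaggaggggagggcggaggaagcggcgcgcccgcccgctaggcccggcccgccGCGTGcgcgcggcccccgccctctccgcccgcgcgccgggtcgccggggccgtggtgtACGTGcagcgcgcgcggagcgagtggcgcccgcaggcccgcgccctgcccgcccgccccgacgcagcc
Egln3: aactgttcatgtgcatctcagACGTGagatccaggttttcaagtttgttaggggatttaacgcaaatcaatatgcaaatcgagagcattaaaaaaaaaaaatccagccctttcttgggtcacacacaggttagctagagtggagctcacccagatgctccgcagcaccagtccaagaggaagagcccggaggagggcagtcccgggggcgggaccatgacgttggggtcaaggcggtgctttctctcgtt
Vhl: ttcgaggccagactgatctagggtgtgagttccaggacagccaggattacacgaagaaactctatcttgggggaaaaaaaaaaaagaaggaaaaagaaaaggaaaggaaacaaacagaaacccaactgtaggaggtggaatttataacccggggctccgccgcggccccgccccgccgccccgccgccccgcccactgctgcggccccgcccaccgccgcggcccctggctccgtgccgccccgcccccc
The Ankrd37 window held 4 matches, of which the nearest was an ACGTG at positions -6 to -2 before the start, and 2 were GCGTG matches on opposite strands that overlap each other. The Egln1 window held 1 GCGTG at -126 to -122 and 1 ACGTG at -68 to -64, and the Egln3 window held 1 ACGTG at -229 to -225. The Vhl window held 0 matches. Among 32851 windows of the same length, 16.6% held ACGTG, 28.2% held GCGTG and 38.6% held either, so a match is common. Genes that did not rise also held matches: the Hif1a window had 3 ACGTG matches, 2 of them from CACGTG read on both strands, Arnt had 1, and the first of 2 Egln2 starts had 4. The windows of Hif1an and Arnt2 held 0.

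Hif1a, the oxygen-regulated alpha subunit of HIF-1, was the only abundant alpha subunit transcript among those with a row. It was listed at 46.2, 46.9 and 45.8 FPKM in DMSO normoxia and at 37.7, 36.6 and 36.7 FPKM in MLN4924 normoxia. Under hypoxia it was listed at 28.6, 26.3 and 31.5 FPKM with DMSO and at 30.2, 28.1 and 29.5 FPKM with MLN4924. Every hypoxia library lay below every normoxia library, and the normoxia groups did not overlap, while the hypoxia groups overlapped fully. Hypoxia lowered Hif1a by a log2 fold change of -0.67 ± 0.06 (SE) in DMSO and -0.33 ± 0.06 in MLN4924 (limma adjusted p = 3.57e-05 and 0.00372). MLN4924 lowered it by 0.32 on the log2 scale in normoxia (limma adjusted p = 0.00621). In hypoxia the difference between MLN4924 and DMSO was 0.03, with a 95% interval from -0.12 to 0.17 (limma adjusted p = 0.796). The levels thus ran from DMSO normoxia through MLN4924 normoxia to the hypoxia groups, and the last pair did not differ beyond their spread.

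Epas1, which encodes the HIF-2 alpha subunit, did not exceed 0.10 FPKM in any library and was listed at 0 in MLN4924 normoxia replicate 1 and MLN4924 hypoxia replicate 3. Hif1a therefore made up 99.7% to 100% of the summed FPKM of Hif1a and Epas1 in every library. Hif3a, another alpha subunit gene, had no row, so its part is unknown. That share differed by -0.14 percentage points between hypoxia and normoxia in DMSO (exact permutation p = 0.1, adjusted 0.2), and 0.1 is the smallest p that 3 libraries against 3 can give.

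Arnt, the constitutive beta subunit that pairs with HIF alpha and also with other bHLH-PAS proteins, fell with the inhibitor in both oxygen conditions and passed no test for oxygen. Its levels were 20.8, 18.7 and 21.5 FPKM in DMSO normoxia, 24.5, 21.1 and 22.8 FPKM in DMSO hypoxia, 16.5, 15.7 and 15.5 FPKM in MLN4924 normoxia and 15.1, 17.7 and 16.9 FPKM in MLN4924 hypoxia. All MLN4924 libraries lay below all DMSO libraries, and the oxygen conditions overlapped within each treatment. MLN4924 lowered Arnt by 0.33 on the log2 scale in normoxia and by 0.44 in hypoxia (limma adjusted p = 0.0162 and 0.00316). The differences between hypoxia and normoxia were 0.16 in DMSO (95% interval -0.02 to 0.34) and 0.05 in MLN4924 (95% interval -0.13 to 0.23). The normoxia call was lost when DMSO normoxia replicate 1 or 3 or MLN4924 normoxia replicate 2 or 3 was left out (limma adjusted p from 0.0541 to 0.0682, and from 0.00214 to 0.0682 over all alternatives).

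Arnt2, a paralog of Arnt best known from neurons, was low in all groups. It was listed at 0, 0.48 and 0 FPKM in DMSO normoxia, 0.24, 0.21 and 0.60 in DMSO hypoxia, 0.78, 0.69 and 0.73 in MLN4924 normoxia, and 0.47, 0.88 and 0 in MLN4924 hypoxia. It was not tested, and an antisense gene that overlaps it, Gm30873, was listed at 0.37 to 2.88 FPKM. Hif1a exceeded Arnt 2.29 ± 0.195 times (SD, n = 3) in DMSO normoxia and 2.33 ± 0.0414 times in MLN4924 normoxia, on the FPKM scale. The ratio was 1.27 ± 0.106 in DMSO hypoxia and 1.78 ± 0.209 in MLN4924 hypoxia, lower in each hypoxia library than in each normoxia library.

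Egln1 encodes PHD2, the main HIF prolyl hydroxylase in most cells. It was listed at 30.0, 30.1 and 28.3 FPKM in DMSO normoxia and 131, 101 and 106 FPKM in DMSO hypoxia. With MLN4924 it was listed at 21.1, 21.8 and 20.4 FPKM in normoxia and 68.8, 66.3 and 65.7 FPKM in hypoxia. No groups overlapped, and MLN4924 hypoxia lay between the DMSO groups. Hypoxia raised Egln1 by 1.89 ± 0.08 on the log2 scale in DMSO and by 1.62 ± 0.08 in MLN4924, 3.72-fold and 3.08-fold on the FPKM + 1 scale (limma adjusted p = 1.58e-07 and 8.33e-07). MLN4924 lowered it by 0.46 in normoxia and by 0.74 in hypoxia (limma adjusted p = 0.00341 and 2.00e-04). DMSO hypoxia replicate 1 held the highest value, and without it the rise in DMSO was 1.78.

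Egln3 encodes PHD3, a hydroxylase known for strong hypoxic induction, and it was the least abundant of the 3 in normoxia. Its levels were 6.70, 6.28 and 6.48 FPKM in DMSO normoxia and 28.1, 24.0 and 24.6 FPKM in DMSO hypoxia. With MLN4924 they were 4.74, 4.48 and 4.24 FPKM in normoxia and 15.3, 16.6 and 15.3 FPKM in hypoxia. The order of the groups was that of Egln1, again without overlap. Hypoxia raised Egln3 3.54-fold in DMSO and 3.05-fold in MLN4924 (log2 fold changes 1.82 ± 0.08 and 1.61 ± 0.08, limma adjusted p = 1.24e-07 and 5.44e-07). MLN4924 lowered it by 0.45 on the log2 scale in normoxia and by 0.66 in hypoxia (limma adjusted p = 0.00242 and 2.10e-04). Among the 12311 genes ranked by their rise under hypoxia, Egln1 stood at 53 and Egln3 at 62 in DMSO, and at 71 and 75 in MLN4924.

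Egln2 encodes PHD1, which is not usually described as a hypoxia-induced gene, and it went the other way. It was listed at 22.6, 26.1 and 23.1 FPKM in DMSO normoxia, 21.5, 19.4 and 17.8 FPKM in DMSO hypoxia, 20.8, 18.7 and 17.8 FPKM in MLN4924 normoxia and 15.3, 14.1 and 14.6 FPKM in MLN4924 hypoxia. DMSO normoxia was highest and MLN4924 hypoxia lowest, and the groups with a single exposure overlapped. Hypoxia lowered Egln2 by 0.28 on the log2 scale in DMSO and by 0.36 in MLN4924 (limma adjusted p = 0.0329 and 0.0124). MLN4924 lowered it by 0.31 in normoxia and by 0.39 in hypoxia (limma adjusted p = 0.0315 and 0.00949). Against DMSO normoxia, the combination gave -0.67 ± 0.09 (limma adjusted p = 2.13e-04). Calls in this gene were lost under several alternatives: the fall in DMSO was lost without DMSO hypoxia replicate 2 or 3 or DMSO normoxia replicate 2 or 3 (limma adjusted p from 0.0593 to 0.123, and from 0.00331 to 0.123 over all alternatives). The fall with MLN4924 in normoxia was lost without any single DMSO normoxia library or without MLN4924 normoxia replicate 2 or 3 (limma adjusted p up to 0.119, and from 0.00483 to 0.119 over all alternatives), and the hypoxic fall in MLN4924 was lost without MLN4924 normoxia replicate 1 (limma adjusted p = 0.0545, and from 0.00242 to 0.0545 over all alternatives). The fall with MLN4924 in hypoxia was lost when only the hypoxia groups were fitted (limma adjusted p = 0.0577, and from 0.00758 to 0.0577 over all alternatives).

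The makeup of the prolyl hydroxylase transcripts differed between hypoxia and normoxia. Their summed FPKM was 59.9 ± 2.37 (SD, n = 3) in DMSO normoxia, 158 ± 19.8 in DMSO hypoxia, 44.7 ± 2.14 in MLN4924 normoxia and 97.4 ± 1.98 in MLN4924 hypoxia. Egln2 made up 39.9% ± 1.79 of that sum in DMSO normoxia and 12.4% ± 0.877 in DMSO hypoxia, and 42.8% ± 1.69 and 15.1% ± 0.474 with MLN4924. Egln1 made up 49.2% ± 1.19 in DMSO normoxia and 71.4% ± 1.305 in DMSO hypoxia, and 47.2% ± 1.80 and 68.7% ± 0.430 with MLN4924. For both genes the hypoxia and normoxia libraries did not overlap in these shares.

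The Egln3 share was 11.3%, 10.0% and 11.2% in DMSO normoxia and 15.5%, 16.6% and 16.5% in DMSO hypoxia. It was 10.2%, 9.95% and 9.995% in MLN4924 normoxia and 15.4%, 17.2% and 15.99% in MLN4924 hypoxia. It lay higher in all hypoxia libraries, by 5.37 percentage points in DMSO and 6.15 in MLN4924 (exact two-sided permutation p = 0.1 for each, the smallest possible, adjusted 0.2 over 4 comparisons). MLN4924 against DMSO gave -0.81 points in normoxia and -0.03 in hypoxia, and the libraries overlapped in both (exact permutation p = 0.2 and 1). Per unit of Hif1a, the hydroxylase sum was 1.29 ± 0.0357 in DMSO normoxia and 1.21 ± 0.0466 in MLN4924 normoxia, against 5.52 ± 0.795 in DMSO hypoxia and 3.33 ± 0.107 in MLN4924 hypoxia.

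**Figure D2:**
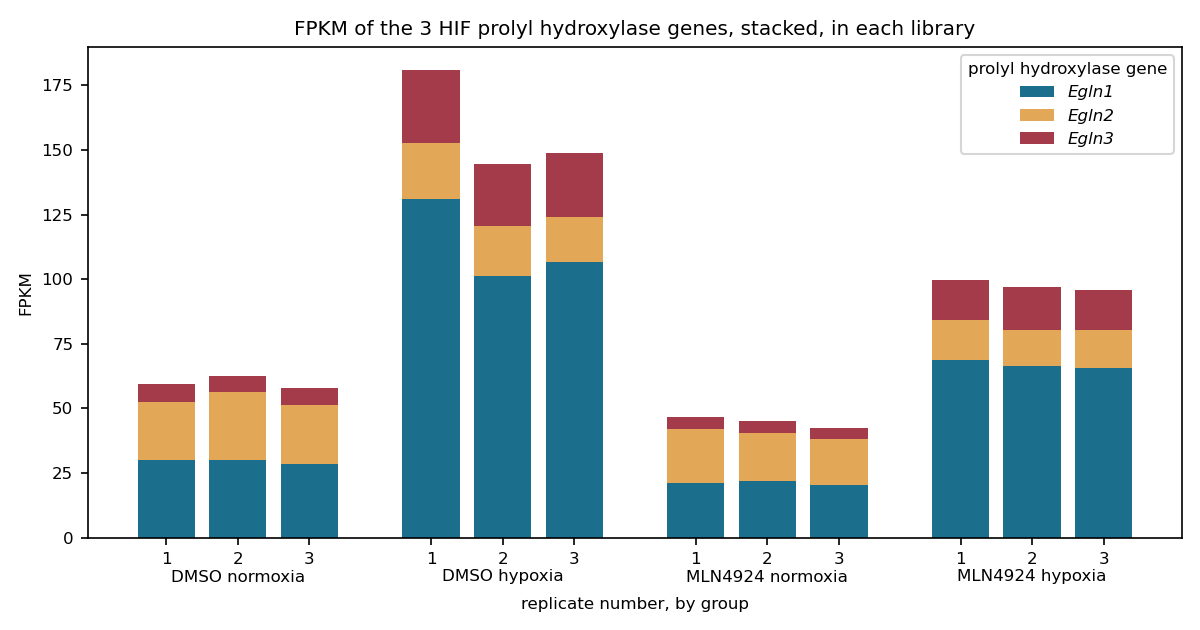
Stacked bars of Egln1, Egln2 and Egln3 FPKM (vertical axis, linear, from 0) in each of the 12 libraries, ordered by group and replicate. The DMSO hypoxia bars reach 145 to 181 FPKM and the MLN4924 hypoxia bars 95.6 to 99.5, and the Egln2 segment is a smaller share of the bar in hypoxia.

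Hif1an encodes FIH, the asparaginyl hydroxylase that keeps HIF alpha from binding its coactivators. It was listed at 14.6, 14.4 and 14.4 FPKM in DMSO normoxia and 8.24, 11.4 and 11.01 FPKM in DMSO hypoxia. With MLN4924 it was listed at 13.0, 14.2 and 13.9 FPKM in normoxia and 11.3, 11.1 and 11.1 FPKM in hypoxia. All hypoxia libraries lay below all normoxia libraries, and DMSO hypoxia replicate 1 was the lowest. In DMSO the fall was -0.47 ± 0.10 on the log2 scale (limma adjusted p = 0.00497), and it was -0.34 without that replicate. That call was lost when only the DMSO groups were fitted (limma adjusted p = 0.0557, and from 4.44e-04 to 0.0557 over all alternatives). In MLN4924 the difference of -0.27 (95% interval -0.50 to -0.05) missed the threshold (limma adjusted p = 0.0669), but passed it without DMSO hypoxia replicate 1 or 2, libraries that enter only through the shared spread (limma adjusted p = 0.00120 and 0.0487, and from 0.00120 to 0.232 over all alternatives). MLN4924 against DMSO differed by -0.07 in normoxia (95% interval -0.29 to 0.15) and by 0.13 in hypoxia (95% interval -0.09 to 0.35).

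Vhl encodes the subunit that recognises hydroxylated HIF alpha, and its RNA also rose under hypoxia. It was listed at 16.3, 16.9 and 15.4 FPKM in DMSO normoxia and 35.4, 29.1 and 26.8 FPKM in DMSO hypoxia. With MLN4924 it was listed at 14.4, 15.1 and 15.0 FPKM in normoxia and 22.5, 23.4 and 23.1 FPKM in hypoxia. The hypoxia groups stood above both normoxia groups and apart from each other. Hypoxia raised Vhl 1.82-fold in DMSO and 1.51-fold in MLN4924 (log2 fold changes 0.86 ± 0.09 and 0.60 ± 0.09, limma adjusted p = 5.79e-05 and 7.45e-04). MLN4924 lowered it by 0.38 on the log2 scale in hypoxia (limma adjusted p = 0.0107). That call was lost when only the hypoxia groups were fitted (limma adjusted p = 0.0887, and from 0.00422 to 0.0887 over all alternatives). In normoxia the difference was -0.12, with a 95% interval from -0.32 to 0.08. Vhl has a short median annotated transcript (percentile 4.9 of the tested genes) and Hif1an a long one (percentile 90.7), and they were respectively highest and lowest in DMSO hypoxia replicate 1. Egln1, Egln3 and Arnt, with long ones (percentiles 91.1, 80.4 and 79.6), were highest in that library too. So was Ankrd37 (percentile 26.6), and Egln2 (percentile 44.0) was highest there within DMSO hypoxia only. Hif1a (percentile 62.4) lay between the other DMSO hypoxia libraries. The part of transcript length in these values was not tested. Without that library the rise of Vhl in DMSO was 0.75.

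Ankrd37, which encodes a small ankyrin repeat protein and is a direct HIF-1 target, had the largest rise of the 8 tested genes under hypoxia. Its levels were 5.78, 4.19 and 3.20 FPKM in DMSO normoxia and 57.6, 45.2 and 41.4 FPKM in DMSO hypoxia. With MLN4924 they were 0.89, 2.15 and 1.98 FPKM in normoxia and 14.7, 15.2 and 13.8 FPKM in hypoxia. No groups overlapped, and the values of MLN4924 normoxia were the lowest. The rise under hypoxia was 3.20 ± 0.22 on the log2 scale in DMSO and 2.58 ± 0.22 in MLN4924 (limma adjusted p = 3.72e-06 and 2.05e-05). In MLN4924 it was 5.96-fold on the FPKM + 1 scale. Adding 1 FPKM shrinks the rise more where values are low, as in MLN4924 normoxia. Over the alternatives the rise ran from 3.03 to 3.45 in DMSO and from 2.34 to 3.135 in MLN4924. In the main fit it ranked at 11 of 12311 genes in DMSO and at 14 in MLN4924. MLN4924 lowered Ankrd37 by 1.02 on the log2 scale in normoxia and by 1.64 in hypoxia (limma adjusted p = 0.00832 and 4.52e-04). The combination remained above DMSO normoxia by 1.56 (limma adjusted p = 3.31e-04).

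Exons of Ankrd37 overlap those of Ufsp2 on the other strand over 57 of 1539 bases, and strandedness of the libraries was not stated. Ufsp2, an enzyme of UFM1 processing, was listed at 22.1 to 44.6 FPKM, and rose by 0.39 on the log2 scale under hypoxia in DMSO and by 0.40 in MLN4924 (limma adjusted p = 0.0167 and 0.0182). Lrp2bp overlaps 349 bases and did not exceed 0.42 FPKM. The part of reads from these neighbours in the Ankrd37 values was not tested.

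**Figure D3:**
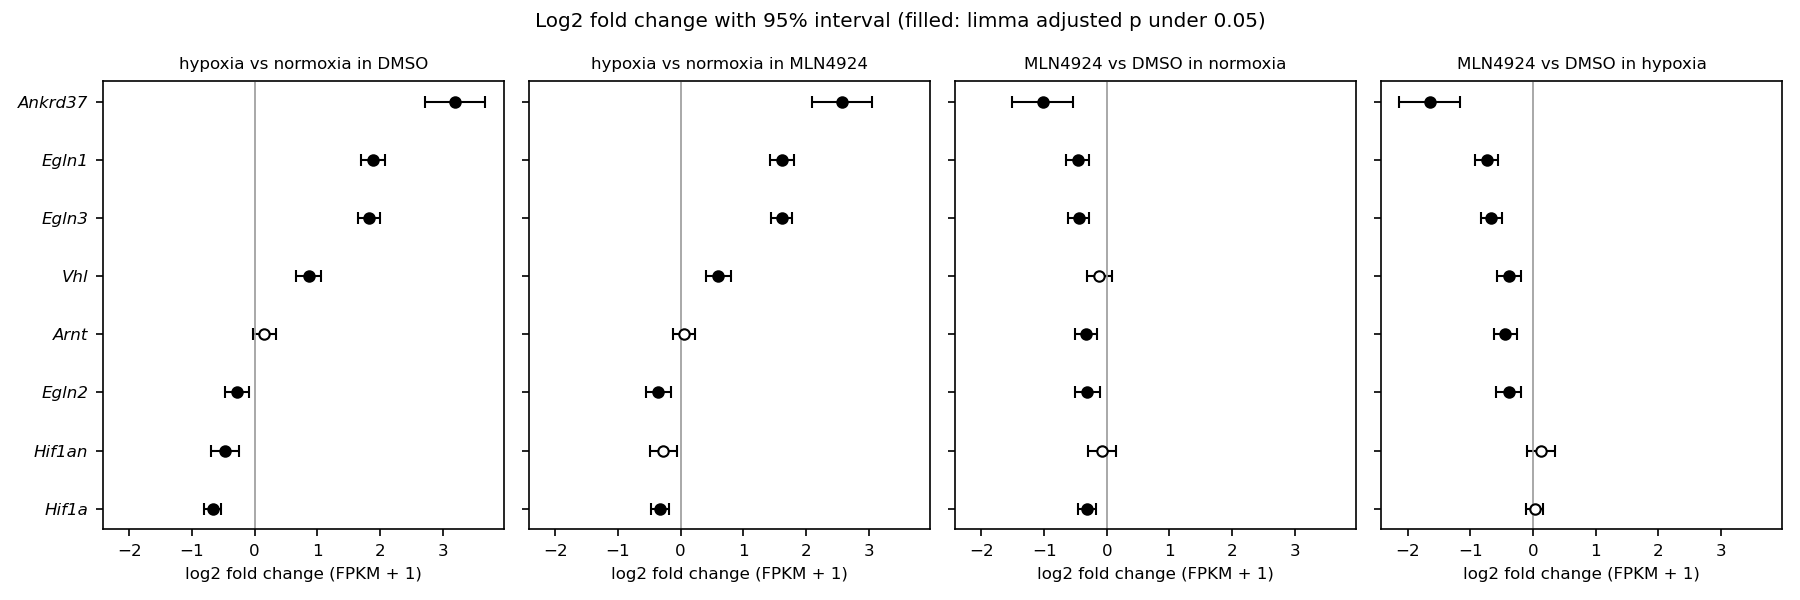
Log2 fold change on the FPKM + 1 scale (horizontal axis) of the 8 tested genes in 4 comparisons, with 95% intervals from limma. Filled points passed an adjusted p of 0.05; Ankrd37, Egln1, Egln3 and Vhl lie right of 0 for hypoxia in both treatments, and none of the 8 genes has a filled point right of 0 for MLN4924.

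Compared across both exposures, MLN4924 hypoxia against DMSO normoxia raised Ankrd37, Egln1, Egln3 and Vhl and lowered Hif1a, Arnt, Egln2 and Hif1an, all 8 tested genes, against 35.8% of all genes passing, 14.6% upward and 21.2% downward. Over all genes the upward and downward calls were 2226 and 2128 with median-of-ratios scaling, rather than 1794 and 2614. With that scaling Hif1an and Arnt were no longer called (limma adjusted p = 0.0624 and 0.0813). The net rise was 2.23-fold for Egln1, 2.24-fold for Egln3 and 1.39-fold for Vhl. The calls of Hif1an (-0.34, limma adjusted p = 0.0220) and Arnt (-0.28, limma adjusted p = 0.0213) were lost under several alternatives, Hif1an without any 1 library of either group (limma adjusted p from 0.0511 to 0.0614, and from 2.12e-04 to 0.0879 over all alternatives). Arnt was lost without MLN4924 hypoxia replicate 1 or DMSO normoxia replicate 1 or 3 (limma adjusted p from 0.0683 to 0.0829, and from 0.00476 to 0.0829 over all alternatives). Between the single exposures, MLN4924 normoxia had more Hif1a (0.35) and Hif1an (0.40) RNA than DMSO hypoxia and less Egln1 (-2.36), Egln3 (-2.27), Vhl (-0.98), Arnt (-0.49) and Ankrd37 (-4.22), on the log2 scale. These were 7 of 8 called, against 42.5% of all genes passing, 22.8% upward and 19.7% downward. Hif1an was not called here when only these groups were fitted (limma adjusted p = 0.0687, and from 0.00118 to 0.0687 over all alternatives). Egln2 differed by -0.03 (95% interval -0.23 to 0.17).

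Whether MLN4924 altered the hypoxia response itself was asked with the interaction, the log2 hypoxia change in MLN4924 minus that in DMSO. By limma, 0 of the 8 genes passed the adjusted threshold, 2 had an unadjusted p under 0.05, and 1.88% of all genes passed, 0.958% upward and 0.926% downward. Hif1a came closest, with 0.34 ± 0.09 (unadjusted p = 0.00342, limma adjusted p = 0.1001), as its fall was smaller with the inhibitor. Without DMSO hypoxia replicate 3 the value was 0.41 and passed (limma adjusted p = 0.0353, and from 0.0353 to 0.221 over all alternatives). Egln1 gave -0.27 (95% interval -0.54 to -0.01, limma adjusted p = 0.328), Egln3 -0.21 (95% interval -0.46 to 0.03), Vhl -0.26 (95% interval -0.54 to 0.02) and Ankrd37 -0.63 (95% interval -1.31 to 0.06). The intervals of these 4 genes hold values near 0 as well as falls of their size. Arnt (-0.11), Egln2 (-0.08) and Hif1an (0.20) had intervals that span 0. Without DMSO hypoxia replicate 1 the values moved to -0.16 for Egln1, -0.15 for Egln3, -0.15 for Vhl and -0.49 for Ankrd37. In that fit they were -0.06 for Arnt, -0.01 for Egln2, 0.07 for Hif1an and 0.34 for Hif1a. The Ankrd37 value ran from -0.86 to -0.31 over the alternatives that tested it.

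**Figure D4:**
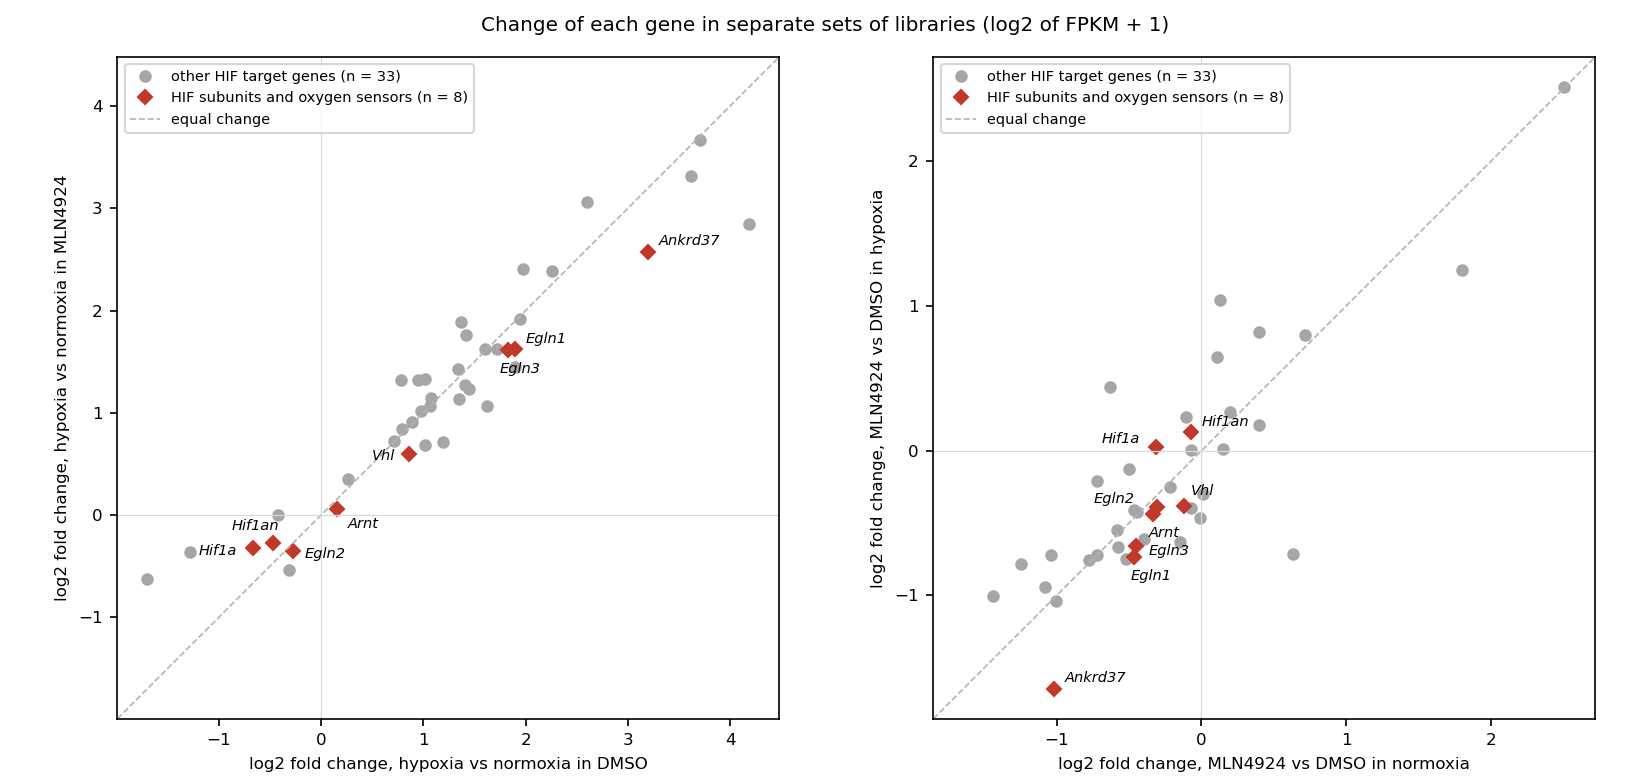
Log2 fold changes (FPKM + 1 scale) of the 8 tested genes (diamonds) and 33 other HIF target genes (grey circles), with hypoxia in DMSO against hypoxia in MLN4924 on the left and MLN4924 in normoxia against MLN4924 in hypoxia on the right. The axes of a panel share no library, and the dashed line marks equal change; Ankrd37 lies at 3.20 and 2.58 on the left and at -1.02 and -1.64 on the right.

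The wider HIF target list, with genes such as Vegfa, Pgk1 and Bnip3 and without the 10 genes above, was set beside the sensors. In DMSO 28 of 33 tested targets rose and 2 fell (Tfrc by 1.28 and Stc2 by 0.43), with a median log2 fold change of 1.34 against -0.08 for all genes, of which 13.8% rose and 19.4% fell. In MLN4924 28 rose and Angptl4 fell by 0.54, with a median of 1.27 against -0.05 for all genes, of which 11.7% rose and 16.5% fell. Adm (4.19 in DMSO and 2.84 in MLN4924), Ndrg1 (3.70 and 3.67) and Ero1a (3.62 and 3.31) had larger rises than Ankrd37 in both treatments. The carbonic anhydrase gene Car9 rose 8.34-fold in MLN4924.

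MLN4924 lowered more of these targets than it raised. In normoxia 14 of 33 fell and 4 rose, with a median of -0.22 against -0.03 for all genes, of which 10.7% fell and 9.33% rose. In hypoxia 19 fell and 6 rose, with a median of -0.40 against -0.01 for all genes, of which 13.3% fell and 12.2% rose. With DMSO hypoxia replicate 1 left out, 16 fell and 7 rose in normoxia, and 20 fell and 6 rose in hypoxia. Among all 12233 genes of that fit 2236 fell and 1976 rose in normoxia, and 1915 fell and 2067 rose in hypoxia. Bhlhe40, a transcriptional repressor, fell by 1.44 in normoxia and by 1.01 in hypoxia, like Ankrd37. Edn1, which encodes endothelin, went the other way, from 0.817 ± 0.0723 to 9.31 ± 0.558 FPKM in normoxia. Adm (0.63) and Hmox1 (0.72) also rose in normoxia. In the interaction 2 targets were higher, P4ha2 (0.52), which encodes a collagen prolyl hydroxylase, and Bhlhe40 (0.43), and 2 were lower, among them Adm (-1.34). Of all genes 0.958% were higher and 0.926% lower in the interaction. Leaving out DMSO hypoxia replicate 1 gave 8 targets higher and 4 lower, and 408 higher and 270 lower among all 12233 genes tested.

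The partners of VHL in its ligase and the enzymes that attach or remove NEDD8 formed a list of 10 genes, all tested. Hypoxia in DMSO raised Uba3, a subunit of the enzyme that MLN4924 blocks, from 58.5 ± 1.25 to 82.5 ± 11.5 FPKM, and lowered Cops5 (-0.40), a subunit of the deneddylating signalosome, and Cand1 (-0.22), a cullin exchange factor. In MLN4924 hypoxia lowered Cops5 (-0.40), Cand1 (-0.23) and Nedd8 (-0.36) and raised 0 by limma (1 at an unadjusted p under 0.05, Uba3 with 0.27). The inhibitor changed 0 of the 10 in normoxia (limma, 2 higher and 1 lower at an unadjusted p under 0.05), and in hypoxia it raised Nae1 (0.40), the other subunit of that enzyme, and lowered the RING subunit Rbx1 (-0.45, or -0.27 without DMSO hypoxia replicate 1). The partners of VHL in the ligase, Cul2, Elob and Eloc, and the NEDD8-conjugating enzyme Ube2m passed in none of these 4 comparisons, with log2 differences from hypoxia in DMSO of 0.12, 0.24, 0.27 and 0.01. Of all genes 33.2% passed for hypoxia in DMSO and 28.2% for hypoxia in MLN4924. For MLN4924 the shares were 20.0% in normoxia and 25.5% in hypoxia. The counts of the list were near or below these shares. They moved when DMSO hypoxia replicate 1 was left out, which enters the DMSO hypoxia mean in some comparisons and the shared spread in all. Without it 1 gene rose and 5 fell with hypoxia in DMSO, 2 rose (Uba3 and Elob) and 4 fell with hypoxia in MLN4924, and MLN4924 raised 3 (Nae1, Uba3 and Cand1) and lowered Rbx1 in normoxia. In that fit 4760 of 12233 genes were called for hypoxia in DMSO, 5231 for hypoxia in MLN4924 and 4212 for MLN4924 in normoxia.

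Other proteins act on HIF alpha stability or activity, and 18 of 19 such genes were tested. Hypoxia in DMSO raised 5 of them, including Rack1 (0.49) and the repressor gene Bhlhe41, and lowered Cited4 (-0.59) and Hsp90ab1 (-0.36). Both directions together, this share was near the 33.2% of all genes called, of which 13.8% were upward and 19.4% downward. Siah2, a ubiquitin ligase that targets prolyl hydroxylases, rose by 0.62 in DMSO and by 0.39 in MLN4924. Its paralog Siah1b rose by 0.52 with hypoxia in DMSO, as did the chromatin reader Ing4 (0.58), and reads of Siah1b and its close copy Siah1a may not be fully separable. Hypoxia in MLN4924 raised 3, which were Siah2, Bhlhe41 (1.09) and the deubiquitinase Usp28 (0.44), and lowered the chaperone genes Hsp90ab1 (-0.55) and Hsp90aa1 (-0.32). As a share of the 18 genes, both directions together, this was near the 28.2% of all genes called for hypoxia in MLN4924, 11.7% upward and 16.5% downward. Without DMSO hypoxia replicate 1 hypoxia in MLN4924 raised 5 and lowered 5 of the list, and 5231 of 12233 genes were called.

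MLN4924 raised 4 and lowered 1 of these modulators in normoxia, and raised 2 and lowered 2 in hypoxia. As shares of the 18 genes, both directions together, these are near the shares of all genes called in the same comparisons, 20.0% and 25.5%. By direction, 9.33% of all genes rose and 10.7% fell in normoxia, and 12.2% rose and 13.3% fell in hypoxia. Cited2, which competes with HIF alpha for the coactivators CBP and p300, rose from 34.6 ± 3.00 to 71.2 ± 2.35 FPKM in normoxia and from 39.1 ± 4.56 to 76.5 ± 2.85 FPKM in hypoxia (log2 fold changes 1.02 and 0.96, limma adjusted p = 2.59e-05 and 4.18e-05). Siah1b rose by 0.91 and 0.43, and Os9 fell by 0.37 and 0.40. Hsp90aa1 (0.36) and Hsp90ab1 (0.21) rose in normoxia, and Bhlhe41 fell by 0.66 in hypoxia. Of 12 other bHLH-PAS factors 5 were tested, and among them Ahr rose with MLN4924 in normoxia (0.41) and Clock fell with hypoxia in DMSO, from 10.1 ± 0.619 to 6.47 ± 2.26 FPKM (-0.62 ± 0.19, limma adjusted p = 0.0317). Without DMSO hypoxia replicate 1 the fall of Clock was -0.34 (limma adjusted p = 0.0106).

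The genes whose profile over the 12 libraries was most like each sensor were named by Pearson r of log2(FPKM + 1), among 8819 candidates that reached a mean of 5 FPKM in a group. The libraries share the 4 groups, so r mostly reflects group means, and it is given as a description. Egln1 was most like Gapdh (0.997), Bsg (0.997) and Galk1 (0.994), and Egln3 was most like Ndrg1 (0.996), Map2k1 (0.995) and Bsg (0.995). Ankrd37 was most like Pfkp (0.991), Ulk3 (0.989) and Gapdh (0.987). Gapdh stood at 3135 FPKM in DMSO normoxia, 7751 in DMSO hypoxia, 2438 in MLN4924 normoxia and 5131 in MLN4924 hypoxia on average, the same order of groups as Egln1, and reads of Gapdh may be shared with its many processed pseudogenes.

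Vhl was most like Fbxw9 (0.991), Rnf126 (0.988) and Bsg (0.988). Hif1a was most like Gpam (0.977), Calr (0.969) and Ak1 (0.968), which were highest in DMSO normoxia. Arnt was most like H2-DMa (0.962), Anxa4 (0.956) and Manba (0.950), which were lower with MLN4924. Egln2 was most like Rmnd5b (0.973), Tmed1 (0.964) and Nr2f6 (0.963), and Hif1an was most like Smad3 (0.985), Cand2 (0.983) and Pcdhgc3 (0.983).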

How the data were processed

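The deposited values were the authors' FPKM with 2 decimals, 1 column per library. Tools listed in the submitters' processing notes were RSEM 1.3.3, STAR and fastp, and the build was mm39. Gene annotation and strandedness are not given in the sources used here. FPKM carry no counts, so depth was unknown and no counting interval is given. Relative depth from 175 low genes with nearly constant non-zero values ran from 0.950 to 1.02, a range limited by how those genes were chosen.

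The 12311 genes that reached 1 FPKM in 3 or more of 12 libraries were fitted as log2(FPKM + 1) in limma 3.58.1 (R 4.3.3). The model had a mean for each of 4 groups, pooled their spread and used an intensity trend. The script was tested on simulated data. There were 7 contrasts, with two-sided p-values adjusted by Benjamini-Hochberg over all genes tested in each, and a threshold of 0.05. Adding 1 FPKM understates changes of low genes. Transcript shares were compared by exact permutation. Whether replicate numbers pair the libraries is not given, and the main fit did not pair them. Alternatives were other pseudocounts, filters and scalings, array weights, no trend, a replicate block, fits of only the groups compared and each library left out. The list counts without DMSO hypoxia replicate 1 were added after seeing the data.

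The 10 genes and the lists were chosen with earlier results of these data known. All 10 genes were described. From the VHL and neddylation list all members could be named, and from other lists up to 3 genes per contrast with the largest called change and a mean of at least 5 FPKM. Vegfa, Pgk1 and Bnip3 are named only to say what the target list holds. Stc2, Angptl4, Hmox1, Bhlhe41, Rack1, Cited4, Hsp90aa1 and Ahr, and some further values of genes the rule gave, were added after their values were seen, to complete small counts. A gene of the target list that the rule gave is not reported here. For likeness the 3 genes with the highest r were named. Promoter windows are from RefSeq (GRCm38.p6), overlaps and transcript lengths from GENCODE on the same build, so no coordinate was set against mm39.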

Additional observations from a re-analysis of the deposited data

How the results depend on the processing

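Of 1217 values of the 8 genes under alternative settings, 1171 kept their direction and side of the threshold, 34 lost the call, 5 gained it and 7 changed sign, and 40 of 56 gene results were the same throughout. The sign changes were all in differences that missed the threshold: Hif1a for MLN4924 in hypoxia (-0.0305 with array weights, and -0.0356 to 0.0910 with single libraries left out, the low end without DMSO hypoxia replicate 2), Hif1an in the same comparison (-0.0032 to 0.209, the low end without DMSO hypoxia replicate 1), Egln2 between the single exposures (0.0571 with array weights, and -0.0944 to 0.0367 with single libraries left out, above 0 without DMSO hypoxia replicate 1 or MLN4924 normoxia replicate 3) and the Egln2 interaction (0.0194 with array weights). With single libraries left out, the number of the 8 genes called in the interaction ran from 0 to 1, the Hif1a share of alpha subunit FPKM differed by -0.0648 to 0.0168 points for MLN4924 in normoxia and -0.0165 to 0.0650 for hypoxia in MLN4924, and the Egln3 share of Egln FPKM differed by -0.514 to 0.357 for MLN4924 in hypoxia. With 1 FPKM added to each gene, the Hif1a share for hypoxia in MLN4924 was -0.611 and the Egln3 share for MLN4924 in hypoxia 0.162. The cause was not tested. A fit with the replicate number as a block left the counts at 7, 6, 6, 6, 8, 7 and 0 in the 7 contrasts and changed no call of the 8 genes; deviations of same-numbered libraries correlated from -0.07 to 0.10, and none of 18 pairs exceeded 0.1. Requiring 1 FPKM in all 12 libraries left Ankrd37 untested, and fitting only the compared groups gives no interaction. The depth behind low values such as Epas1 and Arnt2 is unknown. The number called over all tested genes also moved, and a count limited to 8 genes cannot be ranked against it. Without DMSO hypoxia replicate 1 the number over all genes went from 2467 to 4212 for MLN4924 in normoxia, from 3473 to 5231 for hypoxia in MLN4924 and from 232 to 678 in the interaction, and array weights gave 4524, 5339 and 843. Fitting only the compared groups gave 2224 rather than 4093 for hypoxia in DMSO, 4068 for MLN4924 in normoxia and 1264 rather than 3137 for MLN4924 in hypoxia. In the interaction the replicate block gave 132, and leaving out any 1 library of the other 3 groups gave 90 to 130.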
